A study of Mus musculus with 11 samples.

Results

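The TAM receptor genes Axl, Mertk and Tyro3 were followed together with the genes of their ligands (Gas6 and Pros1), of the phosphatidylserine receptor Timd4 and of the engulfment pair Elmo1 and Dock1. These 8 genes were taken by symbol from the 21860 genes of the normalized count table, and all 8 were present in it. The study asked how Notch signaling combines with other signals of the skin while monocytes become Langerhans cell (LC)-like cells. CD11b-low EpCAM+ cells were sorted on day 6 from mouse bone marrow monocytes that had all been cultured with GM-CSF at 20 ng/ml, and the RNA of 11 such samples was sequenced in bulk. TGFβ (5 ng/ml) and IL-34 (8 µg/ml) were added to 10 of the 11 samples, and these are called TGFβ/IL-34 cultures. They fell into 2 samples with TGFβ/IL-34 alone, 2 with TGFβ/IL-34/FICZ, 3 with TGFβ/IL-34/Jag1 and 3 with TGFβ/IL-34/Jag1/FICZ, and the remaining sample had GM-CSF and Jag1 only.

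Jag1 (Jagged-1) is a Notch ligand and was offered on OP9-Jag1 cells, a mouse stromal line, so Jag1 and the presence of that stroma cannot be told apart. FICZ is 6-formylindolo[3,2-b]carbazole, a ligand of the aryl hydrocarbon receptor (Ahr). The study's text calls it an agonist whereas the deposited design text calls it an antagonist, and the direction of the Ahr signal is not judged here. Its dose is not given in the sources used here. The labels do not say whether replicates came from separate animals, so the p-values measure the spread between these samples. In bulk RNA, fewer cells of a type and less RNA per cell cannot be told apart.

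TAM receptors are receptor tyrosine kinases of phagocytes. They do not bind the dying cell directly. Gas6 and protein S (Pros1) bridge the receptor to phosphatidylserine exposed on the apoptotic cell, and signaling through Elmo1 and Dock1, an exchange factor complex for the small GTPase Rac, reorganizes actin around the cargo. Mertk is widely used as a marker of tissue macrophages, whereas Axl is known as the TAM receptor of LCs and is induced by TGFβ. Timd4 binds phosphatidylserine itself and is typical of embryo-derived resident macrophages.

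In these cultures Axl was by far the most abundant TAM transcript wherever TGFβ/IL-34 was present, and its mean was lower in every group that received Jag1, FICZ or both, with the test passed for both agents together and for FICZ added to Jag1. Mertk and Tyro3 rose with Jag1, by 5.62-fold and 6.8-fold, and fell again by 6.14-fold and 5.93-fold when FICZ was added to Jag1. Dock1 moved the other way in both comparisons. Elmo1 and Pros1 passed the test in no comparison, and Gas6 and Timd4 were too low to be tested. The plot of member levels shows all 8 genes in all samples.

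**Figure D1:**
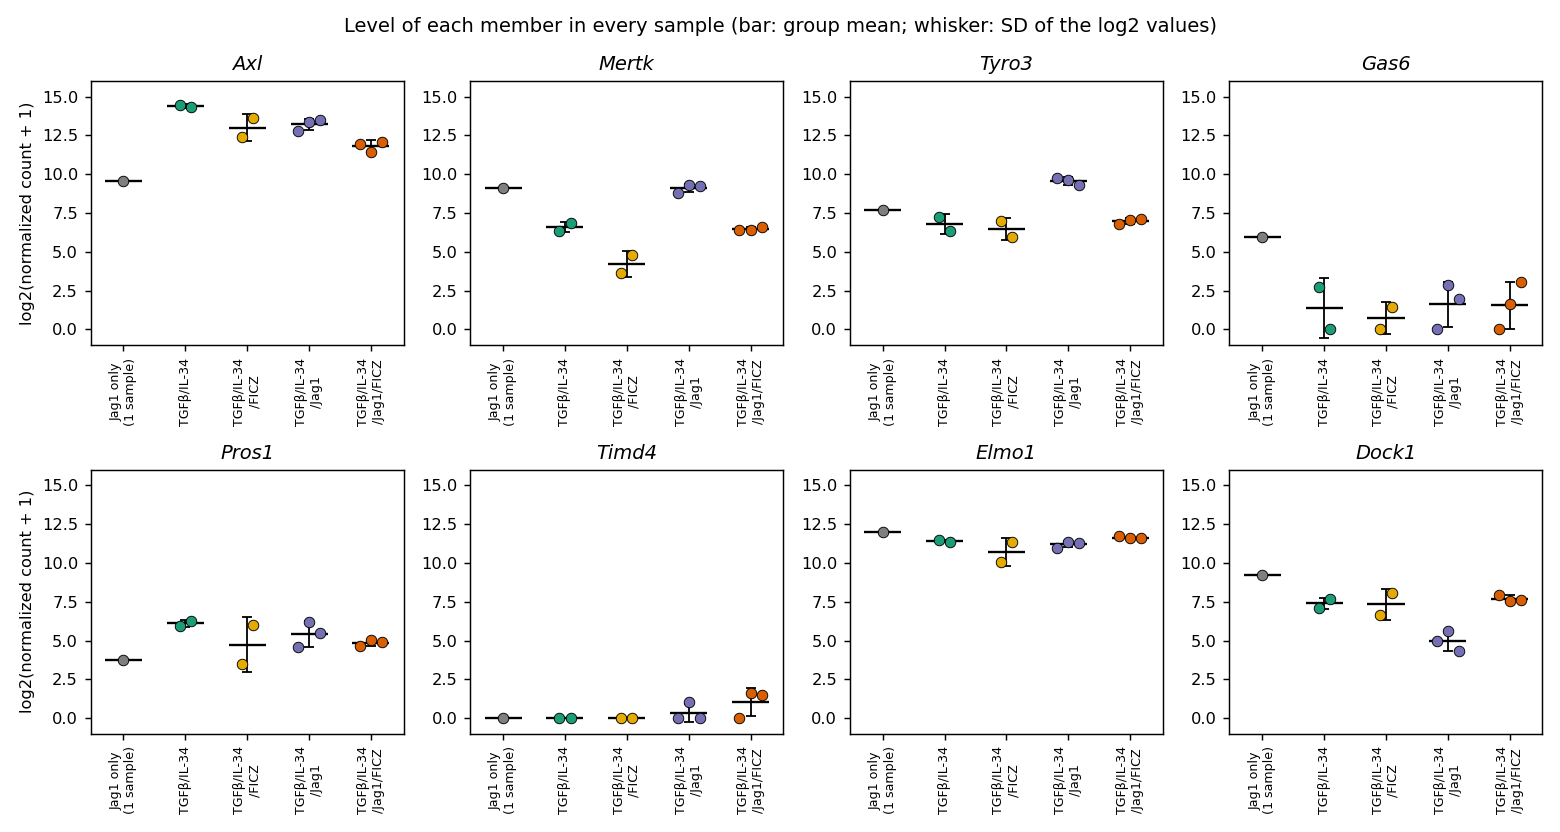
Level of each of the 8 genes in every sample, as log2(normalized count + 1), with 1 point per sample, a bar at the group mean and a whisker of 1 SD of the log2 values (none for the group of 1 sample). Axl is highest in both TGFβ/IL-34 samples (22691 and 20413), Mertk and Tyro3 stand highest among the TGFβ/IL-34 cultures in the TGFβ/IL-34/Jag1 samples, Dock1 is lowest there (19.2 to 47.9), and Gas6 and Timd4 lie near 0 in the TGFβ/IL-34 cultures.

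The upstream sequences of the 4 genes that passed the test in at least 1 comparison are shown because Notch, Ahr and TGFβ signaling each end in a DNA-binding factor with a short core motif that can be looked for. They are the 250 bases before the RefSeq start site on GRCm38.p6, written along the gene's own strand. Capitals mark the Ahr core GCGTG (or its complement CACGC), the Rbpj core TGGGAA (or TTCCCA) of Notch signaling, and the Smad core CAGACA (or TGTCTG) of TGFβ signaling. These cores do not overlap in the windows shown.
Axl, chr7:25788734-25788983 (minus strand): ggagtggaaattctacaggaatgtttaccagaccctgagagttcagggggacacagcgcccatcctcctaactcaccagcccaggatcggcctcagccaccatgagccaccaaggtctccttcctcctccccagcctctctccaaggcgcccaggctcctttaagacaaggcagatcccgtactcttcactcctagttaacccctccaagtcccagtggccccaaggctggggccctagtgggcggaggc
Mertk, chr2:128698665-128698914 (+ strand): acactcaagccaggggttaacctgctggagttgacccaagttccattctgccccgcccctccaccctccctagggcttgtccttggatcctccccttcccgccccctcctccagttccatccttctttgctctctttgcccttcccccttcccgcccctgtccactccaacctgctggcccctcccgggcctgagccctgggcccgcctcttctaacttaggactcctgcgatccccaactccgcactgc
Tyro3, chr2:119799264-119799513 (+ strand): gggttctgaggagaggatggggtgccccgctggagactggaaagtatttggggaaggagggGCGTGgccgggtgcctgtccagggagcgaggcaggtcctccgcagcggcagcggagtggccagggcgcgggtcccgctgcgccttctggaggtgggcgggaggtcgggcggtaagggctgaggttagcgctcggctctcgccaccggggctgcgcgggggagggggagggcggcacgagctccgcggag
Dock1, chr7:134670437-134670686 (+ strand): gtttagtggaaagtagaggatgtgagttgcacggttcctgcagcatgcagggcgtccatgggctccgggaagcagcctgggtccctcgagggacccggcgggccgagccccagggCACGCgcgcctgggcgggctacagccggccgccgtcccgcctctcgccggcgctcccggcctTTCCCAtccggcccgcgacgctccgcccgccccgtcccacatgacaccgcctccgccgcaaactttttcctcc
The Axl and Mertk windows held none of the 3 motifs. The Tyro3 window held 1 Ahr core, 189 bases before the start site. The Dock1 window held 1 Ahr core and 1 Rbpj core, both on the opposite strand. Such matches are common: of 32851 mouse promoters in the same table, windows of that length held the Ahr core in 28.2%, the Rbpj core in 21.6% and the Smad core in 17.1%. A match is a description of letters, not of binding.

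On GRCm39, the build of the count table, Axl lies on chromosome 7 (25456535 to 25488329, minus strand) and Dock1 lies farther along the same chromosome (134272372 to 134775375, plus strand). Tyro3 (119628214 to 119648738) and Mertk (128540729 to 128645080) are both on the plus strand of chromosome 2. Mertk shares 145 exonic bases with an antisense long noncoding RNA, Gm39931, and Elmo1 on chromosome 13 (20274428 to 20792523) shares 403 with Gm32036 and 225 with Gm60937, both antisense. Gas6 on chromosome 8 (13515371 to 13544824, minus strand) shares 154 with Tmem255b on the other strand, and Pros1 on chromosome 16 (62674275 to 62749710) shares 32 with the antisense Gm60971. Whether the libraries kept strand is not given in the sources used here, so reads of those bases could not be assigned. Timd4 lies on chromosome 11 (46701620 to 46735177), and it shares no exonic base with another annotated gene, nor do Axl, Tyro3 and Dock1.

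Depth was even. The normalized counts of a sample summed to between 21310445 and 27845052, 1 read was worth an estimated 0.885 to 1.15 normalized counts, and the level of 3 reads was therefore 2.66 to 3.45. The sort gene Epcam stood at 3952 to 14377 normalized counts in the TGFβ/IL-34 cultures and at 657 in the Jag1 only sample. Cd207, which encodes the LC lectin langerin, reached 1366 to 1784 in the TGFβ/IL-34/Jag1 samples, 154 to 157 with TGFβ/IL-34 alone, 6.21 to 6.9 with TGFβ/IL-34/FICZ, 6.29 to 132 with both agents and 21.8 in the Jag1 only sample. Langerin transcript thus differed widely between samples that carry the same cell label. The other listed LC markers did not all follow it from TGFβ/IL-34 alone to TGFβ/IL-34/Jag1. Cldn1 (6161 to 6561 against 14743 to 15498) and Runx3 (8196 to 8205 against 15387 to 16968) were higher with Jag1. Tgfbr1 was lower (6186 to 6809 against 2180 to 3718), and the ranges of Cdh1, Id2 and Cd74 overlapped.

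Markers of other cell types also moved with the groups. Of 15 listed stromal genes, 8 to 11 were at 0 with TGFβ/IL-34 alone and 11 with TGFβ/IL-34/FICZ, against 2 to 4 in the cultures with Jag1. The summed stromal level was 818 to 1213, 3671 to 12232, 686 to 1504 and 15082 to 17376 normalized counts in the TGFβ/IL-34, FICZ, Jag1 and combined groups, and outside the Jag1 group most of it came from Thy1. Without Thy1 the sums were 28.1 to 28.6, 54.2 to 92.5, 458 to 1220 and 838 to 5189. Col1a1, a collagen gene, was at 0 in both FICZ samples and at 84.1 to 369 in the Jag1 samples, although the labels describe every sample as grown on OP9. Summed granulocyte markers, among them the protease gene Elane, were 384 to 1599, 3143 to 4951, 267 to 375 and 8403 to 12973 in the same order, and Ly6g, a defining neutrophil marker, was at 0 in all samples of the last 3 groups. Summed mast cell and basophil markers were 1762 to 2370, 5755 to 6730, 1138 to 2434 and 4569 to 6928, with Fcer1a at 0 in all of them. The part of these cells in the results was not tested.

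To ask what Jag1 did in the absence of FICZ, the TGFβ/IL-34/Jag1 samples were compared with TGFβ/IL-34 alone. Mertk and Tyro3 rose, Dock1 fell, and Axl was lower without passing the test. Thus 3 of the 6 tested genes were called, 2 higher and 1 lower, against 6.6% of all 13095 tested genes in either direction, 2.64% higher and 3.96% lower. The members were chosen with earlier results of these data known, so their called shares, here and below, are a description. Calls here and below are at an adjusted p under 0.05 in limma, fitted across all tested genes on log2(normalized count + 1).

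Mertk was at 81.6 and 114 normalized counts with TGFβ/IL-34 alone and at 439, 620 and 596 with Jag1. Every Jag1 sample lay well above both controls. The log2 fold change was 2.49 ± 0.37 (SE, n = 2 and 3), with an adjusted p of 0.00319 in limma.

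Tyro3, the TAM receptor best known from the nervous system, stood at 150 and 80.4 with TGFβ/IL-34 alone. With Jag1 it was at 870, 776 and 632 normalized counts. Again no sample of either group reached the other, and the log2 fold change was 2.77 ± 0.36 (limma adjusted p = 0.00173).

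Axl was at 22691 and 20413 with TGFβ/IL-34 alone and at 7086, 10491 and 11295 with Jag1. The groups did not overlap, which also held for 46.6% of all tested genes, and the log2 fold change of -1.19 ± 0.35 had a limma adjusted p of 0.0778. The call depended on the fit: with only these groups in the model the adjusted p was 0.0281, and with sample weights, which called 2627 of all genes instead of 864, it was 0.00301.

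Dock1 stood at 138 and 200 normalized counts with TGFβ/IL-34 alone and at 30.1, 47.9 and 19.2 with Jag1. All Jag1 samples were below both controls. It fell by 2.42 ± 0.48 on the log2 scale (limma adjusted p = 0.0142), but the adjusted p was 0.071 without TGFβ/IL-34 replicate 1 and 0.174 without TGFβ/IL-34 replicate 2. Elmo1, the partner of Dock1, had 2841 and 2602 against 2004, 2640 and 2523. Those groups overlapped, and its log2 fold change was -0.20 with a limma adjusted p of 0.819.

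Within the 2 experiments that held both groups by the sample descriptions, Mertk and Tyro3 were higher and Axl and Dock1 lower with Jag1 in each, by log2 differences of 2.38 to 2.91, 2.37 to 2.96, -1.11 to -0.85 and -3.32 to -1.51. The authors' table gives TGFβ/IL-34 replicate 1 another experiment code than its description, and with that code the directions were the same, at 2.38 to 2.41, 2.53 to 2.96, -1.68 to -0.85 and -3.32 to -2.16. Stromal markers moved with this comparison, 7 of 12 tested higher and 1 lower. Of granulocyte and mast cell markers, 1 of 9 and 3 of 5 tested were called lower and 0 higher. The summed granulocyte levels did not overlap (384 to 1599 without and 267 to 375 with Jag1). The summed mast cell levels did (1762 to 2370 and 1138 to 2434). Kit was the largest entry of that sum in both groups, at 1024 to 1313 without and 945 to 2302 with Jag1. Cpa3 was at 607 to 781 without and 95.4 to 152 with Jag1. The part of these cells in the result was not tested.

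FICZ was next compared with no addition in the absence of Jag1. None of the 6 tested genes was called by limma, and only 0.0229% of all tested genes were. At an unadjusted p under 0.05 there were 2 of the 6 and 2284 of all genes. Mertk, at 11.4 and 26.7 normalized counts with FICZ, lay below both controls, with a log2 fold change of -2.39 and a limma adjusted p of 0.0919. Axl, at 5270 and 12412, also lay below both controls, with -1.41 and a limma adjusted p of 0.28. Groups did not overlap for 3 of the 6 genes and for 45.7% of all tested genes.

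The 2 FICZ samples differed from each other. Replicate 1 was lower than replicate 2 for Axl, Mertk, Pros1 (10.1 against 63.6), Elmo1 (1082 against 2577) and Dock1 (98.1 against 263), and higher for Tyro3 (124 against 61.8). The column name of replicate 1 also carried another code, taken here as the flow cell although the labels do not say so. Only TGFβ/IL-34/Jag1/FICZ replicate 1 shared that code, so both samples with it had received FICZ. Without replicate 2, limma called Axl, Mertk, Pros1 and Elmo1, with log2 fold changes of -2.03, -2.97, -2.63 and -1.33, while the calls over all tested genes went from 3 to 5718. The count of called members in this comparison thus went from 0 to 4 with 1 library, in a setting that called a large share of all genes. The pair within 1 experiment is uncertain, because the sample description and the authors' table give TGFβ/IL-34 replicate 1 different experiment codes. Paired by the description, Mertk, Axl and Tyro3 were lower with FICZ by log2 differences of -1.58, -0.87 and -1.26, and paired by the authors' table by -2.74, -2.11 and -0.27.

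The effect of FICZ in the presence of Jag1 had 3 samples on each side, and here limma called 4 of the 6 tested genes. Mertk, Tyro3 and Axl fell and Dock1 rose. In this comparison 17.7% of all tested genes were called, 10.9% higher and 6.71% lower.

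Mertk was at 85.7, 83.7 and 95.1 normalized counts with Jag1 and FICZ. All were below the lowest value with Jag1 alone, 439, and close to each other. Mertk fell by 2.62 ± 0.33 on the log2 scale (SE, n = 3 and 3), with a limma adjusted p of 0.000495.

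Tyro3 was at 110, 133 and 136 with both agents. All were below the lowest Jag1 sample, at 632. The fall on the log2 scale was 2.57 ± 0.32 with a limma adjusted p of 0.000505.

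Axl was at 4000, 2724 and 4309 with both agents. Every value was below the lowest Jag1 value of 7086, and Axl fell by 1.39 ± 0.31 on the log2 scale (limma adjusted p = 0.0121). Without TGFβ/IL-34/Jag1 replicate 3 the adjusted p was 0.0527, and without TGFβ/IL-34/Jag1/FICZ replicate 2 it was 0.0617.

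Dock1 was at 249, 183 and 194 normalized counts with both agents. It rose by 2.73 ± 0.43 on the log2 scale (limma adjusted p = 0.00166), and no sample of one group reached the other. Elmo1 had 3335, 3114 and 3084 against 2004, 2640 and 2523. Its groups did not overlap either, but its log2 fold change of 0.42 had a limma adjusted p of 0.345. With only these groups in the model, or with sample weights, Elmo1 was called, at limma adjusted p of 0.0373 and 0.0488. In all, 5 of the 6 genes had groups that did not overlap, against 45.1% of all tested genes.

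The 3 experiments each held a sample with and without FICZ on Jag1. Mertk, Tyro3 and Axl were lower with FICZ in 3 of 3, by log2 differences of -2.88 to -2.34, -2.97 to -2.20 and -1.95 to -0.83, and Dock1 was higher in 3 of 3, by 1.91 to 3.28. Markers of granulocytes and of mast cells moved up in this comparison, 7 of 9 and 4 of 5 tested, and 3 of 12 stromal markers did. The part of these cells in the result was not tested.

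**Figure D2:**
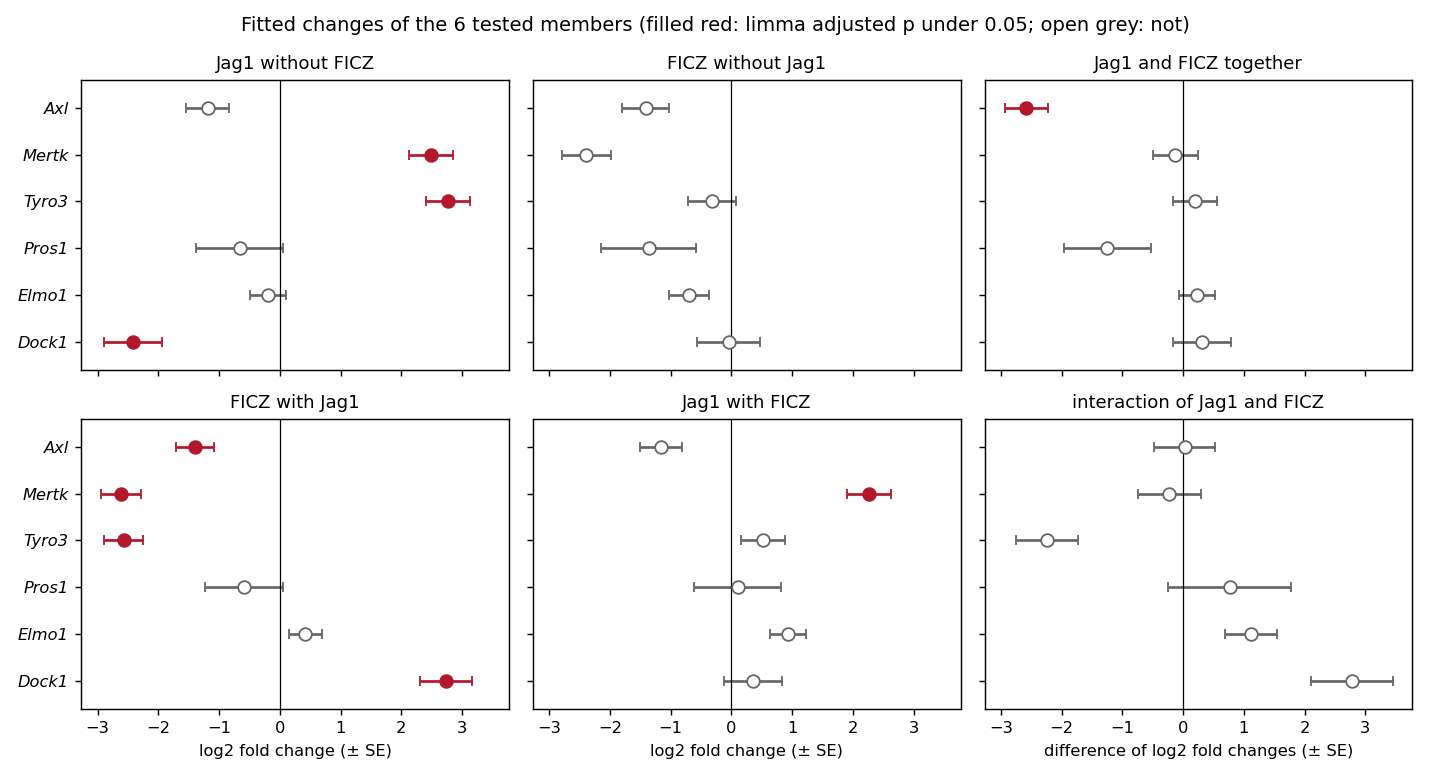
Fitted change of the 6 tested genes in each comparison, as the log2 fold change with its SE (in the last panel, the difference of 2 such changes), filled red where the limma adjusted p is under 0.05. Mertk and Tyro3 lie on the right with Jag1 (2.49 and 2.77) and on the left when FICZ is added to Jag1 (-2.62 and -2.57), with Dock1 opposite to them in both panels (-2.42 and 2.73).

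Both agents together were then set against TGFβ/IL-34 alone, with which the former comparisons share samples. Limma called 1 of the 6 genes, Axl, which fell by 2.58 ± 0.35 on the log2 scale, or 5.97-fold, with an adjusted p of 0.00477. For both agents 4.48% of all tested genes were called and 1.37% were called lower. Without TGFβ/IL-34 replicate 1 the adjusted p of Axl was 0.0795. Mertk (83.7 to 95.1 against 81.6 and 114) and Dock1 (183 to 249 against 138 and 200) had groups that overlapped, with log2 fold changes of -0.13 and 0.31. Tyro3 had groups that overlapped as well, with a log2 fold change of 0.20. A missed threshold does not show that these levels were equal. Pros1, at 23.9, 31.1 and 28.7 against 60.3 and 75.6 normalized counts, lay below both controls, with a log2 fold change of -1.25 and a limma adjusted p of 0.426. Groups did not overlap for 3 of the 6 genes and for 54.2% of all tested genes. Pros1 was called with only these groups in the model and with sample weights, at limma adjusted p of 0.0391 and 0.026.

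Jag1 was also compared in the presence of FICZ. Limma called 1 of the 6 genes, Mertk, against 2.02% of all tested genes in either direction and 1.41% higher. Mertk rose from 11.4 and 26.7 normalized counts to 83.7 to 95.1, by 2.26 ± 0.37 on the log2 scale (limma adjusted p = 0.0167). Leaving out any of the 3 combined samples took its adjusted p to between 0.066 and 0.0703, and it was 0.162 with only these groups in the model and 0.668 with sample weights. Axl had a log2 fold change of -1.16 (limma adjusted p = 0.113), Tyro3 of 0.52 (0.374) and Elmo1 of 0.93 (0.131). These values rested on the 2 differing FICZ samples. Without TGFβ/IL-34/FICZ replicate 1 they were -1.78 for Axl (limma adjusted p = 0.0297), 1.02 for Tyro3 and 0.30 for Elmo1, and without replicate 2 they were -0.55, 0.03 and 1.55 (limma adjusted p = 0.000143 for Elmo1), with 5820 of all tested genes called in the latter setting. Axl, Mertk and Elmo1 had groups that did not overlap, as did 35.8% of all tested genes.

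The interaction term tested the difference between the FICZ effects in cultures with and without Jag1. Limma called 0 of the 6 genes and 1.39% of all tested genes, while at an unadjusted p under 0.05 there were 3 of the 6 and 2458 of all genes. Tyro3 had a difference of log2 fold changes of -2.24 ± 0.51 (limma adjusted p = 0.0667) and Dock1 one of 2.78 ± 0.68 (limma adjusted p = 0.0834). For Axl and Mertk the differences were 0.03 ± 0.50 and -0.23 ± 0.52. The response of Tyro3 or Dock1 to FICZ was therefore not shown to differ between cultures with and without Jag1. Without TGFβ/IL-34/FICZ replicate 2, limma called Tyro3, Elmo1 and Dock1, at differences of -2.74, 1.75 and 3.49, and 5488 of all tested genes.

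To compare the receptors with each other, levels were divided by the length of the Ensembl canonical transcript. The summed level of the 3 TAM receptors was 4438 to 4939 normalized counts per kb with TGFβ/IL-34 alone, 1167 to 2693 with FICZ, 1830 to 2712 with Jag1 and 636 to 981 with both. Axl made up 98.9 to 99% of that sum with TGFβ/IL-34 alone and 97.2 to 99.2% with FICZ. With Jag1 its share was 83.4 to 89.7%, with Mertk at 4.72 to 5.17% and Tyro3 at 5.62 to 11.5%. With both agents the Axl share was 92.1 to 95%. The shares of the Jag1 group overlapped with those of no other group, although for Tyro3 the combined group reached 5.04%. Groups without overlap were common over all tested genes, as given above. The shares were not tested and are another form of the levels already given.

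**Figure D3:**
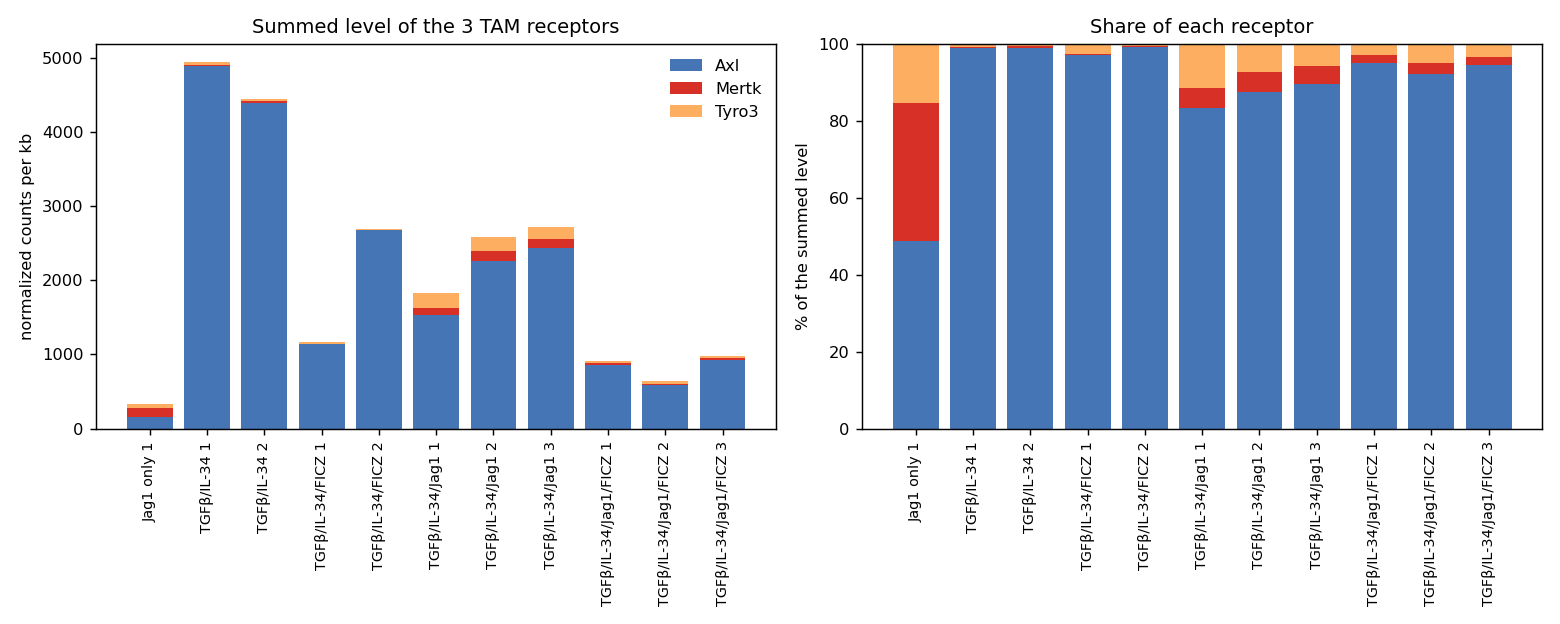
Summed level of Axl, Mertk and Tyro3 in each of the 11 samples in normalized counts per kb of canonical transcript (left), and the share of each receptor in that sum in % (right). The sum is largest with TGFβ/IL-34 alone (4438 to 4939), Axl makes up at least 83.4% of it in all TGFβ/IL-34 cultures, and only in the Jag1 only sample is its share 48.8%.

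The Jag1 only sample, grown with GM-CSF but without TGFβ/IL-34, had no replicate and is given as a description. It held 746 normalized counts of Axl, below the range of 2724 to 22691 of the other 10 samples. Mertk, at 546, and Tyro3, at 210, lay within their ranges. The TAM sum was 329 normalized counts per kb, of which Axl made up 48.8%, Mertk 35.7% and Tyro3 15.5%. Elmo1 (4053) and Dock1 (589) lay above all other samples, which reached 3335 and 263.

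The ligands were low throughout. Gas6 was at 0 to 7.31 normalized counts in the 10 TGFβ/IL-34 cultures, and 4 of them were at 0. It reached 60.2 in the Jag1 only sample, the only sample above the filter minimum of 10, so it was not tested. In that sample 2 of the 15 stromal markers were at 0, and Fbln2, a matrix gene, was at 319. The samples with both agents also had 2 of these markers at 0, with Fbln2 at 116 to 544, but Gas6 at 0 to 7.31. The stromal part in this Gas6 level was not tested. Pros1 ranged from 10.1 to 75.6 normalized counts in the TGFβ/IL-34 cultures and was at 12.7 in the Jag1 only sample.

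With Jag1 alone Pros1 stood at 22.9, 73.3 and 44.6, a range that reached both the controls and the combined group. With all groups equally weighted and all samples kept, it was called in no comparison, with log2 fold changes between -1.36 and 0.10 in the 5 group comparisons and an interaction difference of 0.77. The settings that called it are given above. Timd4 was at 0 in 8 of the 11 samples and at 1.04 to 2.08 in the other 3, all of which had Jag1. That is below the level of 3 reads, so no difference was detectable at this depth.

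Over the 11 samples, which come from the 5 culture groups, the log2 levels of Mertk and Tyro3 had a Pearson r of 0.789. Tyro3 and Dock1 had an r of -0.784, and Axl and Pros1 an r of 0.768. Axl and Mertk had an r of -0.15. The genes most like Axl by this measure were Pald1 (0.977), Emp1 (0.973) and Ski (0.972), and those most like Mertk were Fyb2 (0.966), Llgl1 (0.966) and Dgkd (0.959). For Tyro3 they were Slc16a11 (0.968), Cacng8 (0.962) and Cfap161 (0.961), and for Dock1 they were F2rl1 (0.975), Vav2 (0.963) and Abcc1 (0.961). For Pros1 they were Hdgfl3 (0.982), Scap (0.973) and Naip5 (0.964), and for Elmo1 they were Peak1 (0.987), Atrx (0.984) and Syne1 (0.977). These are the top 3 of 13095 genes for each member, given as a description.

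The remaining genes of apoptotic cell uptake were taken from 5 lists of 73 genes, of which 69 were tested. The lists, like the members, were chosen with earlier results of these data known. Their called shares, here and below, are therefore a description. With Jag1 and no FICZ, 6 of the 69 were called higher and 10 lower (23.2%, against 6.6% of all tested genes), and the median log2 fold change was -0.17 against 0.00 over all genes. When FICZ was added to Jag1, 15 were called higher and 14 lower (42%, against 17.7%), with a median of 0.03 against -0.01. No gene of the lists was called for FICZ without Jag1, while 7 were for both agents together (10.1%, against 4.48% of all tested genes), 5 for Jag1 in the presence of FICZ (7.25%, against 2.02%) and 5, all higher, for the interaction (against 1.17% of all tested genes called higher).

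Of 18 tested genes of other recognition receptors and bridging molecules, 12 were called in at least 1 comparison, as were 20.4% of all tested genes. C1qb and C1qc encode chains of complement C1q, which opsonizes apoptotic cells. C1qc stood at 529 to 626 normalized counts with TGFβ/IL-34 alone, 4155 to 8463 with Jag1 and 217 to 806 with both agents. It rose by 3.41 on the log2 scale with Jag1 (limma adjusted p = 0.00428), and fell by 3.64 when FICZ was added to Jag1 (limma adjusted p = 0.00061). C1qb showed log2 fold changes of 2.90 and -3.14 in the same comparisons, both called. These genes rose and fell in the comparisons in which Mertk and Tyro3 did.

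Cd93, a C-type lectin-like receptor linked to the clearance of apoptotic cells, went the other way. It was at 845 to 964 with TGFβ/IL-34 alone, at 35.2 to 55.2 with Jag1 and at 1361 to 1802 with both. Its log2 fold changes were -4.23 and 4.98, and its interaction term of 4.52 had a limma adjusted p of 0.00174. Cd300lf, a receptor for phosphatidylserine, had log2 fold changes of -1.75 and 1.22, both called. Thbs1, the secreted bridging protein thrombospondin-1, was at 1755 to 3070 with Jag1 and at 21480 to 30121 with both agents, and rose by 3.44 on the log2 scale when FICZ was added to Jag1. It stood at 41889 in the Jag1 only sample.

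Of the 16 tested genes of engulfment signaling to Rac, 5 were called in at least 1 comparison, or 31.3% against 20.4% of all tested genes. Rac2, the hematopoietic Rac GTPase, fell by 2.09 on the log2 scale with Jag1 and rose by 2.12 when FICZ was added, with ranges of 6905 to 7932, 1592 to 2054 and 6988 to 8152 normalized counts with TGFβ/IL-34 alone, with Jag1 and with both. Gulp1, an adaptor of engulfment receptors, was at 7.31 to 10.5 with TGFβ/IL-34 alone, around the filter minimum of 10. It was listed at 0 in all 3 Jag1 samples and stood at 14.2 to 37.3 with both agents. Bcar1, the scaffold p130Cas, was at 16.2 to 19.9 with TGFβ/IL-34 alone, 259 to 556 with Jag1 and 24.2 to 86.4 with both, with called log2 fold changes of 4.44 and -3.39. Vav1 and Vav3, exchange factors for Rac, were called only for FICZ with Jag1, at -0.90 and 0.94. Within engulfment signaling, then, Rac2 and Gulp1 moved in the direction of Dock1, and Bcar1 in the direction of Mertk.

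Among 10 genes of find-me and do-not-eat-me signals, 5 were called in at least 1 comparison, beside the same 20.4% of all tested genes. Pecam1, an adhesion molecule that signals detachment from viable cells, was at 186 to 250 with Jag1 and at 3534 to 4200 with both agents, with called log2 fold changes of -2.47 with Jag1 and 4.09 when FICZ was added. Panx1, the channel that releases nucleotides from dying cells, had -1.10 and 2.05, both called. P2ry6, a receptor for extracellular nucleotides, fell by 2.49 when FICZ was added to Jag1, whereas Cd47 rose by 0.85 and Cx3cr1 by 2.36.

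Of 16 genes of phagosome maturation and lipid handling, 7 were called in at least 1 comparison, against 20.4% of all tested genes. Rxra and Nr1h3, which encode the nuclear receptors RXRα and LXRα, fell by 2.31 and 2.14 on the log2 scale when FICZ was added to Jag1, and Atg16l1, an autophagy gene, fell by 0.81. Cybb, the catalytic subunit of the phagocyte NADPH oxidase, and Abca1, a lipid exporter, fell by 1.75 and 1.80 with Jag1. Of 9 genes of TAM ligand carboxylation, receptor shedding and signaling, 3 were called in at least 1 comparison, or 33.3% against that 20.4%. Socs3, a feedback inhibitor of cytokine signaling, rose by 1.32 with Jag1 and fell by 1.81 when FICZ was added, while the related Socs1 had -0.78 and 0.89, both called. Vkorc1, which recycles the vitamin K that ligand carboxylation needs, was called only for Jag1 in the presence of FICZ, at -1.21. Granulocyte and mast cell markers moved in the same comparisons, at the levels given above.

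**Figure D4:**
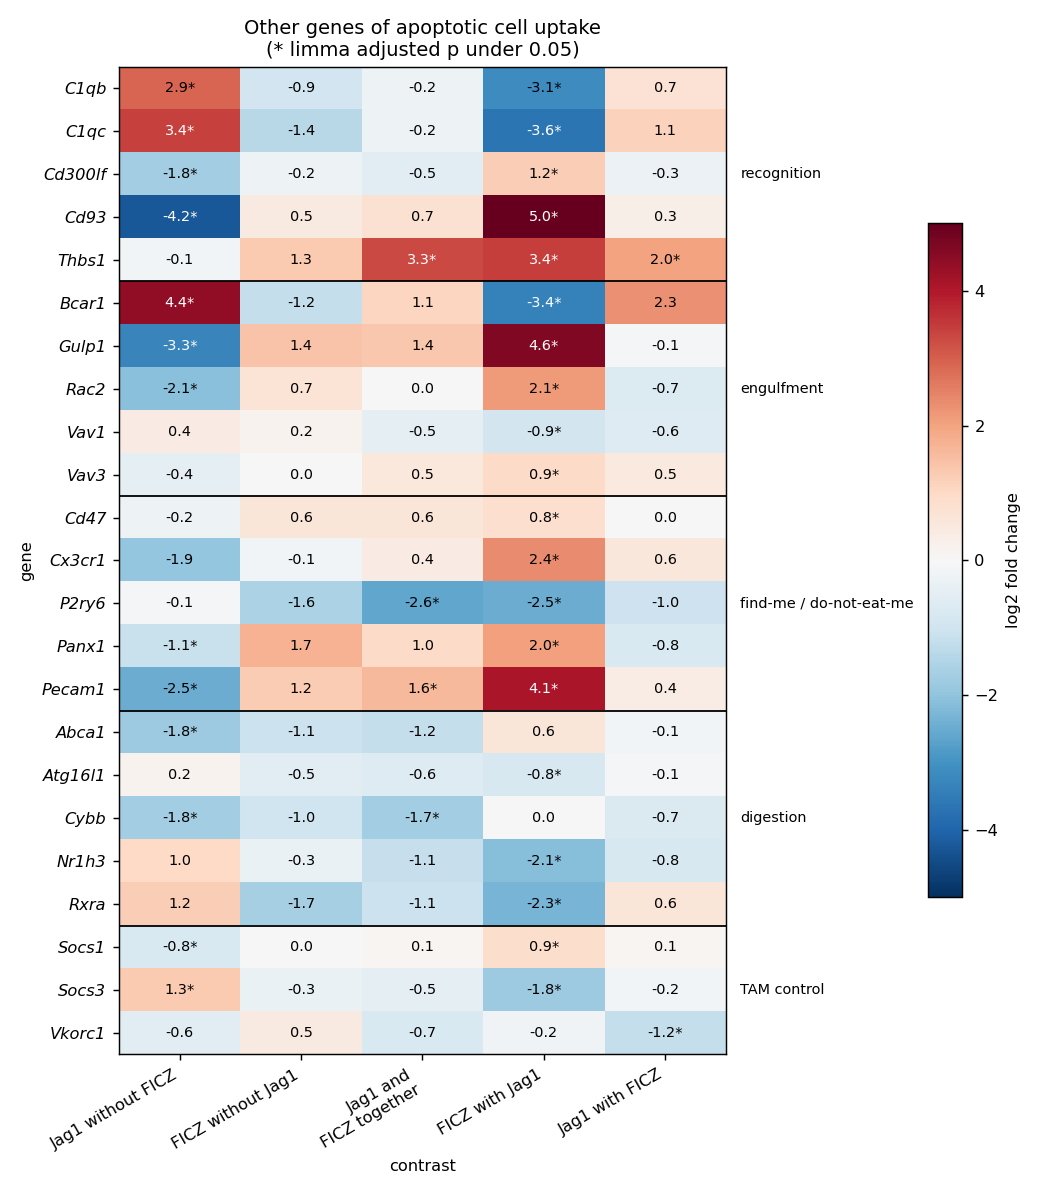
Log2 fold change of the 23 named genes of the 5 lists in 5 comparisons, with a star where the limma adjusted p is under 0.05. C1qb, C1qc, Bcar1 and Socs3 are higher with Jag1 and lower when FICZ is added to Jag1, whereas Cd93, Cd300lf, Gulp1, Rac2, Panx1, Pecam1 and Socs1 show the reverse, and no gene has a star for FICZ without Jag1.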

How the data were processed

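RNA of 11 sorted mouse samples was sequenced. Per the methods, the authors used salmon and a GRCm39 transcript model from Ensembl, added up the transcripts of each gene with tximport and scaled samples with DESeq2 (versions not given in the sources used here). The deposited values are therefore a signal, normalized counts with decimals, and not raw counts. Whole reads could be recovered for single-transcript genes only (85.2 to 99.1% of their low values lay within 0.1 of a whole read, against 55.1 to 61.3% over all genes), so no count test was run. Transcript-level sharing of reads by salmon can affect genes with overlapping or similar transcripts.

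The 13095 of 21860 genes that reached 10 normalized counts in 2 or more samples were tested on log2(value + 1) with limma 3.58.1 in R 4.3.3 (lmFit, contrasts.fit, eBayes with trend). All 11 samples entered 1 model with a mean per group. P-values are two-sided and adjusted by Benjamini-Hochberg over all tested genes of each comparison. Fold changes are on this scale, which understates changes of low genes. The procedure was run on simulated counts with the same dispersion for every gene and no outlying library, unlike these data. That run therefore cannot show how calls behave where 1 library differs. Levels per kb use the Ensembl canonical transcript of GENCODE vM39, upstream sequences are from RefSeq (8 of 8 genes matched), and 21676 of 21860 gene IDs matched the annotation.

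The members and lists were chosen with earlier results of these data known. Named genes were the members, up to 5 called genes per list with the smallest adjusted p over the 6 contrasts, and the 3 genes most correlated with each member. Replicate numbers of the Jag1 groups with and without FICZ mark the same experiment code in the sample descriptions, and the deviations of same-numbered samples correlated at 0.153, 0.122 and 0.166, so these numbers pair the samples. The FICZ samples without Jag1 share these numbers and codes as well (2 pairs with each Jag1 group), whereas in the TGFβ/IL-34 group the numbers did not follow the codes. The authors' own condition column matched the labels in 11 of 11 samples, and the experiment code differed in 1, TGFβ/IL-34 replicate 1. Alternatives were other normalization, pseudocounts, filter, weights, blocks and leaving out each sample. Precision is limited by groups of 1 to 3 samples.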

Additional observations from a re-analysis of the deposited data

Results flagged for a closer look

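The Jag1 only sample was in none of the comparisons, and 3 of the 8 genes lay above all other samples in it: Gas6 at 60.2 normalized counts, Elmo1 at 4053 and Dock1 at 589. The highest values in the other 10 samples were 7.31, 3335 and 263. These are values of 1 library without a replicate, and none of the differences was tested.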

How the results depend on the processing

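Of the results with all groups in the model, the calls of Mertk and Tyro3 for Jag1 without FICZ, and of Mertk, Tyro3 and Dock1 for FICZ with Jag1, held under every alternative run. Counts of called genes moved by more than 1.5 times in these cases. For both agents together, 2 genes were called with only the groups of the contrast and 2 with sample weights (Axl and Pros1). For Jag1 with FICZ, 0 were called under each of these settings. Leaving out each sample in turn gave 2 to 3 called genes for Jag1 without FICZ, 0 to 4 for FICZ without Jag1 (4 without TGFβ/IL-34/FICZ replicate 2), 0 to 1 for both agents together (0 without TGFβ/IL-34 replicate 1), 3 to 4 for FICZ with Jag1, 0 to 2 for Jag1 with FICZ (0 without any TGFβ/IL-34/Jag1/FICZ replicate, 2 without TGFβ/IL-34/FICZ replicate 1, Axl and Mertk, and 2 without its replicate 2, Mertk and Elmo1) and 0 to 3 for the interaction (3 without TGFβ/IL-34/FICZ replicate 2). Each left-out sample also took 1 residual degree of freedom. Over all tested genes, leaving out a sample gave 195 to 714 calls instead of 864 for Jag1 without FICZ, 0 to 5718 instead of 3 for FICZ without Jag1, 35 to 308 instead of 587 for both agents together, 1387 to 1821 instead of 2312 for FICZ with Jag1, 54 to 5820 instead of 264 for Jag1 with FICZ and 9 to 5488 instead of 182 for the interaction, with the highest counts of FICZ without Jag1, of Jag1 with FICZ and of the interaction all without TGFβ/IL-34/FICZ replicate 2. The other settings gave 721 to 2627, 0 to 5, 489 to 3558, 2237 to 4123, 0 to 289 and 8 to 250. The replicate block gave 3, 0, 1, 4, 1 and 0 called genes in the 6 comparisons, the same members as without it, and changed no member call. Same-numbered samples share an experiment code in all groups but TGFβ/IL-34, and the correlation of their deviations passed 0.1 in every pair only between the Jag1 groups with and without FICZ. Blocks for the experiment code of the authors' table and for the code taken as the flow cell were chosen after seeing the data. They changed no count of called members either. Within-experiment values by the authors' code, given in the report, were likewise added after seeing the data. Some column names also ended in L3, whose meaning the labels do not give. Every TGFβ/IL-34/Jag1 sample had this ending, as did TGFβ/IL-34 replicate 2 and TGFβ/IL-34/Jag1/FICZ replicate 2. No block was run for it, and its part in the results was not tested.

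Some log2 values that were called nowhere changed sign. Leaving out each sample in turn, the values for FICZ without Jag1 ran from -0.82 to 0.17 for Tyro3 and from -0.757 to 0.659 for Dock1, those for both agents together from -0.364 to 0.108 for Mertk and from -0.247 to 0.641 for Tyro3, those for Jag1 with FICZ from -1.17 to 1.38 for Pros1 and from -0.348 to 1.07 for Dock1, and those for the interaction from -0.593 to 0.643 for Axl, from -0.805 to 0.354 for Mertk and from -0.504 to 2.04 for Pros1. With quantile normalization, Dock1 became 0.0389 for FICZ without Jag1 and Pros1 -0.26 for Jag1 with FICZ. With the experiment block, Mertk became 0.045 for both agents together, Pros1 -0.0114 for Jag1 with FICZ and Axl -0.239 for the interaction. With the flow cell block, Dock1 became 0.14 for FICZ without Jag1, Mertk 0.0486 for both agents together, Pros1 -0.107 for Jag1 with FICZ and Axl -0.0418 for the interaction, and with sample weights the last was -0.05. The cause was not tested. Groups of 2 or 3 samples limit what could be detected, and values under about 3 reads carry no difference.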
